A study of Mus musculus with 8 samples.

Results

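Oxidative phosphorylation passes electrons through complexes I to IV of the inner mitochondrial membrane and uses the resulting proton gradient at complex V, the ATP synthase, to make ATP. Most subunits are encoded in the nucleus and imported, while several core subunits of complexes I, III, IV and V come from the mitochondrial genome, so both sets are needed for an assembled chain. In the inner ear, the stria vascularis and the sensory hair cells are known for a high demand for ATP, and several complex IV subunits exist as isoforms that are typical of heart, skeletal muscle or brown fat.

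The nuclear genes were chosen by symbol: Nduf (complex I and its assembly factors), Sdha to Sdhd (complex II), Uqcr (complex III), Cox4i, Cox5, Cox6, Cox7 and Cox8 (complex IV) and Atp5 (complex V), with Ndufa4 and Ndufa4l2 counted in complex IV. The choice by symbol used no measured difference between genotypes, but it was made with earlier results of these data known. These symbols matched 94 of the 21895 genes in the table, and 91 of them reached a mean of 0.5 FPKM (fragments scaled by transcript length and by the mapped fragments of the library, a level per length) and were tested among 14990 genes. The 91 genes were 36 subunits of complex I, 8 complex I assembly factors, 4 genes of complex II, 8 of complex III, 18 of complex IV and 17 of complex V. The 3 genes not tested were Cox7b2, at most 0.610 FPKM, Cox8c, 0.0734 FPKM in KO2 and listed at 0 in the other libraries, and a second gene identifier named Atp5o (ENSMUSG00000116933), listed at 0 in every library. Nearest to the limit, Cox7b2 had a mean of 0.229 FPKM below it and Cox6a2 one of 0.784 FPKM above it.

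RNA-seq was performed on the whole cochlea of wild-type (WT) mice and of mice without the microRNA miR-29a (miR-29a-/-, KO), with 4 libraries per genotype, WT1 to WT4 and KO1 to KO4. The strain had a C57BL/6 background and was bred from heterozygous mice, whose pups were genotyped from tail or toe DNA, and mice of both sexes were used. The series text gives an age of 21 days and the study's methods give 2 months. The labels do not say how many animals a library held, so that p-values measure the spread between these libraries, which may be partly technical. The table holds no mature microRNA, so the absence of miR-29a was not checked here.

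Cochlear identity was carried by Coch, the extracellular protein of spiral ligament fibrocytes, at 1231 to 1927 FPKM, and the hair cell myosin Myo7a was at 5.03 to 10.3 FPKM. RNA of other tissues varied between libraries: the summed level of 8 neutrophil markers was 53.3 to 9926 FPKM in WT and 1714 to 5207 FPKM in KO, that of 8 erythroid markers 449.5 to 7481 FPKM in WT and 4905 to 12110 FPKM in KO, and that of 5 bone markers 89.6 to 472.5 FPKM in WT and 585.8 to 748.9 FPKM in KO. Counts were not used here and the number of reads is unknown. The relative depth estimated from the smallest values was 1.157 times the median library in WT1 and 1.165 times in KO1. In the others it was 0.953 (WT4) to 1.042 (KO3) times. WT1 stood apart, and leaving it out raised the share of all genes called from 5.12% to 19.5%. WT3 stood apart in the markers of other tissues. It was the lowest of the 8 libraries for 8 of 8 neutrophil, 8 of 8 erythroid and 5 of 5 bone markers.

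Few nuclear oxidative phosphorylation genes were called between genotypes. The median standard error (SE) of their log2 fold changes was 0.29, against 0.25 over all tested genes. A wider SE makes a call less likely. In the 8 libraries, 1 of the 91 genes passed the test, against 767 (5.12%) of all 14990 tested genes (limma, unadjusted two-sided p under 0.05, the rule of the study). The gene, Cox8b, rose in KO, and the share called higher over all genes was 4.61%. Over all genes 691 calls were higher and 76 lower, and with libraries scaled by median ratios 402 were higher and 363 lower. After Benjamini-Hochberg adjustment in limma over all tested genes, none of the 91 genes and none of the 14990 passed, and the smallest adjusted p among the 91 was 0.947. No gene among the 91 had WT and KO values that did not overlap, and 3.5% of all tested genes did. The 91 genes moved together between libraries, so these shares are given without a contrast.

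The estimates were centred slightly above 0. Of the 91 genes, 73 had a log2 fold change above 0 and their median was 0.13, while 9962 of the 14990 genes were above 0 with a median of 0.10. When libraries were scaled by median ratios, 58 of the 91 were above 0 and the medians were 0.03 for these genes and 0.0043 for all genes. Most estimates were small, with 85 of 91 between -0.5 and 0.5 on the log2 scale. The 95% interval lay within -1 and 1 for 60 of 91 genes (65.9%, against 67.2% of all genes), so a change of 2-fold was outside the interval for those genes and inside it for the rest. The plot of genotype differences by complex shows these estimates beside their intervals.

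**Figure D1:**
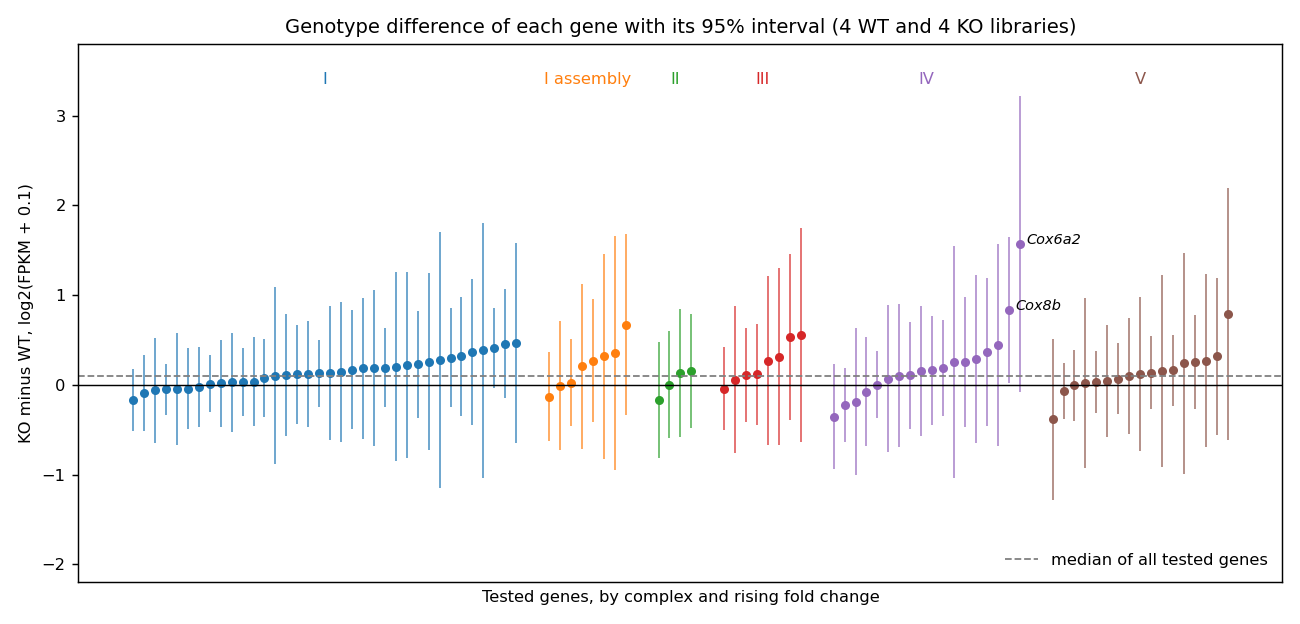
Genotype difference of each of the 91 tested genes, as KO minus WT on the log2(FPKM + 0.1) scale (vertical axis), by complex and in rising order within a complex, with 95% intervals from limma as vertical lines and the median of all tested genes (0.10) as a dashed line. The interval of Cox8b (0.83) excludes 0 and that of Cox6a2 (1.57) reaches just below it.

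Complex I takes electrons from NADH. Among its 36 tested subunits, the accessory subunit Ndufa12 had the lowest mean level, 6.85 FPKM. None passed the test, 29 had a fold change above 0, and the median was 0.13. The smallest p belonged to Ndufb7, an accessory subunit of the membrane arm. Its values were 19.6, 27.4, 20.9 and 23.4 FPKM in WT1 to WT4 and 26.6, 32.4, 40.7 and 23.4 FPKM in KO1 to KO4. The log2 fold change was 0.41 ± 0.20 (SE), with an unadjusted p of 0.0681 in limma and an adjusted p of 0.947. KO2 and KO3 lay above every WT library, and KO1 and KO4 lay inside the WT range.

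Ndufa13, an accessory subunit also known as GRIM-19, was at 10.9, 23.3, 19.7 and 17.1 FPKM in WT and 28.8, 21.5, 29.1 and 17.03 FPKM in KO, with a log2 fold change of 0.46 and p of 0.122 in limma. Ndufa5, a subunit of the peripheral arm, had a log2 fold change of 0.31, and its WT values of 9.03 to 18.7 FPKM overlapped its KO values of 14.4 to 20.6 FPKM.

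The 8 Ndufaf genes encode factors that build complex I and are not part of the finished enzyme. Their means ran from 3.02 FPKM for Ndufaf2 to 8.90 FPKM for Ndufaf7 and lay below every subunit mean except that of Ndufa12. None passed the test. Ndufaf8 had the largest estimate, with values of 1.47, 6.59, 5.42 and 6.01 FPKM in WT and 5.45, 6.74, 8.23 and 7.13 FPKM in KO, a log2 fold change of 0.67 and an interval of -0.33 to 1.68. WT1 lay far below the other 7 libraries, and KO1 lay between WT3 and WT4. Ndufaf3 was at 3.55 FPKM in WT1, 7.62 to 8.41 FPKM in the other WT libraries and 6.48 to 10.5 FPKM in KO.

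Complex II, succinate dehydrogenase, links the chain to the citric acid cycle and has no mitochondrially encoded subunit. Its flavoprotein Sdha was at 37.6, 94.8, 102.5 and 95.6 FPKM in WT and at 73.2, 86.9, 89.8 and 89.0 FPKM in KO. The log2 fold change was 0.13 with an interval of -0.58 to 0.85. The KO values lay between WT1 and the other WT libraries. The iron-sulfur subunit Sdhb had an estimate of 0.0027, and the membrane anchors Sdhd and Sdhc ones of 0.15 and -0.17. Sdhc was the least abundant of the 4 genes at 7.85 FPKM.

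Complex III passes electrons from ubiquinol to cytochrome c. None of its 8 genes passed the test, and 7 had a fold change above 0. The small subunit Uqcrb, which binds ubiquinone, was at 26.2, 23.5, 8.81 and 27.9 FPKM in WT and 17.1, 38.5, 37.6 and 27.2 FPKM in KO, with a log2 fold change of 0.54 and p of 0.223 in limma. The lowest WT library here was WT3, and for the other 7 genes it was WT1. A share of 25.4% of the 50-base words of the Uqcrb transcripts also occurred in other genes, so its level is uncertain. Uqcr11 was at 5.85, 38.5, 25.0 and 27.7 FPKM in WT and 24.7 to 39.4 FPKM in KO, with a log2 fold change of 0.56. Uqcr10, the most abundant of the 8 at 86.3 FPKM, had one of 0.06, and Uqcrq one of 0.32.

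Complex IV, cytochrome c oxidase, hands the electrons to oxygen. Its only called gene was Cox8b, the isoform of subunit VIII that is typical of heart, skeletal muscle and brown fat (chr7:140898945-140900446 in the table's coordinates, which match GRCm38). Its values were 4.99, 13.6, 11.5 and 12.8 FPKM in WT1 to WT4 and 14.1, 20.6, 26.8 and 13.4 FPKM in KO1 to KO4. The means were 10.7 ± 3.94 and 18.7 ± 6.30 FPKM (SD, n = 4 each). KO2 and KO3 lay above all WT libraries, KO1 lay just above WT2, and KO4 lay just below WT2. The log2 fold change was 0.83 ± 0.36 (SE), a 1.78-fold difference, with an interval of 0.02 to 1.65, an unadjusted p of 0.0453 in limma and an adjusted p of 0.947. Without WT1 the log2 fold change was 0.50 and p 0.0691, without KO2 0.77 and 0.0987, without KO3 0.64 and 0.123, and without WT3 0.90 and 0.0559 in limma. The call was thus lost on leaving out any of these 4 libraries.

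Cox6a2, the striated-muscle isoform of subunit VIa (chr7:128205435-128206387), had the largest fold change of the 91 genes with a pseudocount of 0.1, at a very low level. It was at 1.17, 0.194, 0.0618 and 0.172 FPKM in WT and 0.442, 0.562, 2.28 and 1.39 FPKM in KO. Its means were 0.400 FPKM in WT and 1.17 FPKM in KO, so it reached the limit of 0.5 FPKM only through KO. The p-values of this gene are therefore given only as a description. Each KO library lay above WT2 to WT4, and WT1 lay above KO1 and KO2. The log2 fold change was 1.57 ± 0.72 (SE) with p 0.0596 in limma. Without WT1 it was 2.18 with an unadjusted p of 0.00503 and an adjusted p of 0.148. Without WT1 and KO1 together, an alternative chosen after the data were seen, it was 2.501 with an unadjusted p of 0.00337 and an adjusted p of 0.284, and the estimate with a pseudocount of 1 in place of 0.1 was 0.61, below those of Cox8b (0.77) and Atp5g2 (0.73).

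Without WT1, 2 of the 91 genes were called, Cox6a2 higher and the assembly factor Ndufaf5 lower (log2 fold change -0.35, p 0.0395 in limma), against 19.5% of all genes. Without WT1 and KO1, 2 of the 91 were called, Cox6a2 and Cox8b, both higher, against 16.2% of all genes. Both counts include Cox6a2, which reached the limit of 0.5 FPKM only through KO. The median over the 91 genes was -0.11 without WT1, with 27 above 0, and 0.03 without both, with 52 above 0.

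Markers of striated muscle and of fat, where these isoforms are known, also differed between libraries. The muscle creatine kinase Ckm was at 0.0280, 0.134, 0.0150 and 0.882 FPKM in WT and 0.163, 0.0983, 29.0 and 3.96 FPKM in KO, so that KO3 and KO4 stood apart, and skeletal actin Acta1 reached 141.5 FPKM in KO3 and 10.2 FPKM in KO4, against at most 2.18 FPKM elsewhere. Over 24 muscle markers the summed level was 16.1 to 50.9 FPKM in WT and 24.5 to 601 FPKM in KO. Of the 20 tested, 2 passed as higher in KO, the myosin light chain Mylpf and myoglobin Mb (1 without WT1, 3 without WT1 and KO1). The shares of all genes called in these fits were 5.12%, 19.5% and 16.2%. Mb had means of 0.373 FPKM in WT and 5.08 FPKM in KO, so it reached the limit of 0.5 FPKM only through KO. The same held for others of the 20, among them Ckm (0.265 and 8.30 FPKM). The counts of called muscle markers are therefore given only as a description. The brown fat uncoupler Ucp1 was listed at 0 in WT1 and was at 2.12, 0.0268 and 5.07 FPKM in WT2 to WT4 and at 2.60, 10.6, 5.43 and 0.0798 FPKM in KO. Over 10 brown adipocyte markers the sum was 39.9 to 109.9 FPKM in WT and 58.0 to 87.7 FPKM in KO, with none of 8 tested genes called. Over 7 markers of fat in general the sum was 0.123 to 26.1 FPKM in WT and 6.86 to 52.8 FPKM in KO, and 1 of 5 tested genes, the adipsin gene Cfd, was called higher, a list in which 0 genes were called under median-ratio scaling or without WT1 and KO1. The part of these tissues in the values of Cox8b and Cox6a2 was not tested. In bulk tissue, more or fewer cells of a type and more or less RNA per cell cannot be told apart.

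**Figure D2:**
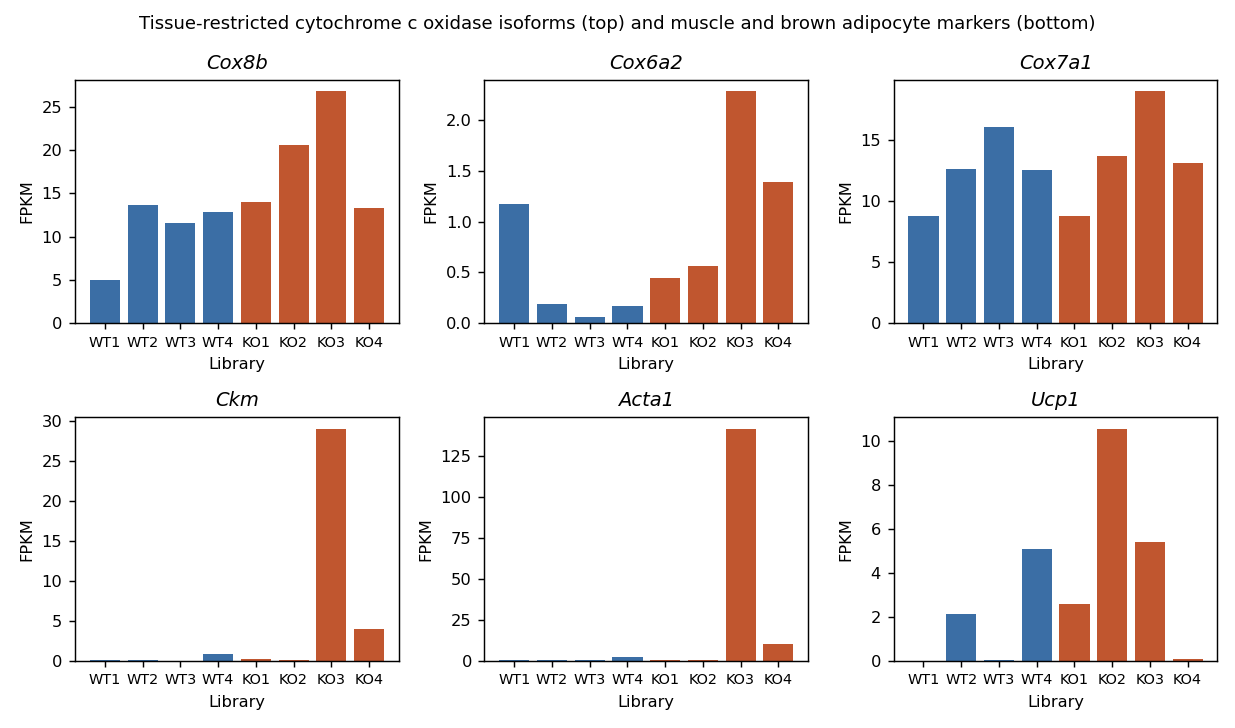
FPKM (vertical axes, from 0) of Cox8b, Cox6a2 and Cox7a1 in the top row and of the markers Ckm, Acta1 and Ucp1 in the bottom row, one bar per library, WT in blue and KO in orange. KO3 is the highest library for Cox8b (26.8), Cox6a2 (2.28), Cox7a1 (19.0), Ckm (29.0) and Acta1 (141.5), while Ucp1 is highest in KO2 (10.6).

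Each tissue-restricted isoform was weighed against its broadly expressed partner within a library, which removes the scale of the library. Cox8a, the broad form of subunit VIII, exceeded Cox8b 6.03 to 17.3 times over the 8 libraries. On the log2 scale the ratio averaged 3.54 ± 0.57 for WT and 3.15 ± 0.48 for KO (SD over 4 libraries), and the groups overlapped. Cox7a2 exceeded Cox7a1, the heart and muscle form of subunit VIIa, 2.62 to 8.85 times, with log2 ratios of 2.65 ± 0.84 in WT and 2.80 ± 0.26 in KO. Cox7a1 itself was at 8.79, 12.6, 16.0 and 12.6 FPKM in WT and 8.79, 13.7, 19.0 and 13.1 FPKM in KO, a log2 fold change of 0.11 with an interval of -0.49 to 0.70.

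Cox6a1 exceeded Cox6a2 36.7 to 1252 times, with log2 ratios of 5.34, 8.72, 10.3 and 8.73 in WT and 7.91, 6.81, 5.20 and 5.56 in KO. WT1 lay within the KO range and the other WT libraries above it. Cox4i1, the ubiquitous form of subunit IV, exceeded Cox4i2, the lung form induced by low oxygen, 30.6 to 157.2 times, and Ndufa4 exceeded its paralog Ndufa4l2 27.5 to 75.3 times. Cox6b1 exceeded Cox6b2, known from testis, 11.1 to 37.4 times. Ndufa4l2 had the smallest p of the lower genes, with WT values of 1.24 to 2.25 FPKM, KO values of 0.979 to 1.42 FPKM, and a log2 fold change of -0.35 (p 0.206 in limma). Cox7b, at 52.9 FPKM, had no ratio because Cox7b2 was listed at 0 in 2 libraries.

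Complex V had the most abundant gene of the 91, the catalytic subunit Atp5b, at a mean of 308 FPKM, and none of its 17 genes passed the test. Atp5b was at 170.2, 324.0, 369.9 and 347.6 FPKM in WT and 265.5, 318.0, 352.7 and 316.3 FPKM in KO, a log2 fold change of 0.10. Its 3 c-subunit genes encode the same mature protein of the rotor ring. Atp5g3 exceeded Atp5g1 3.54 to 5.32 times in every library, whereas the ratio of Atp5g2 to Atp5g1 ran from 0.151 to 2.30. Atp5g2 was at 8.49, 15.2, 11.1 and 3.53 FPKM in WT and 24.0, 33.3, 5.78 and 9.93 FPKM in KO, with a log2 fold change of 0.79 and an interval of -0.61 to 2.19. KO1 and KO2 were above all WT libraries and KO3 was below 3 of them. For Atp5g2, 38.4% of the 50-base words occurred in other genes, the highest share of the 91, and its level is uncertain. The e subunit Atp5k, the least abundant at 6.32 FPKM, had a log2 fold change of -0.38, and the g subunit Atp5l one of 0.26.

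**Figure D3:**
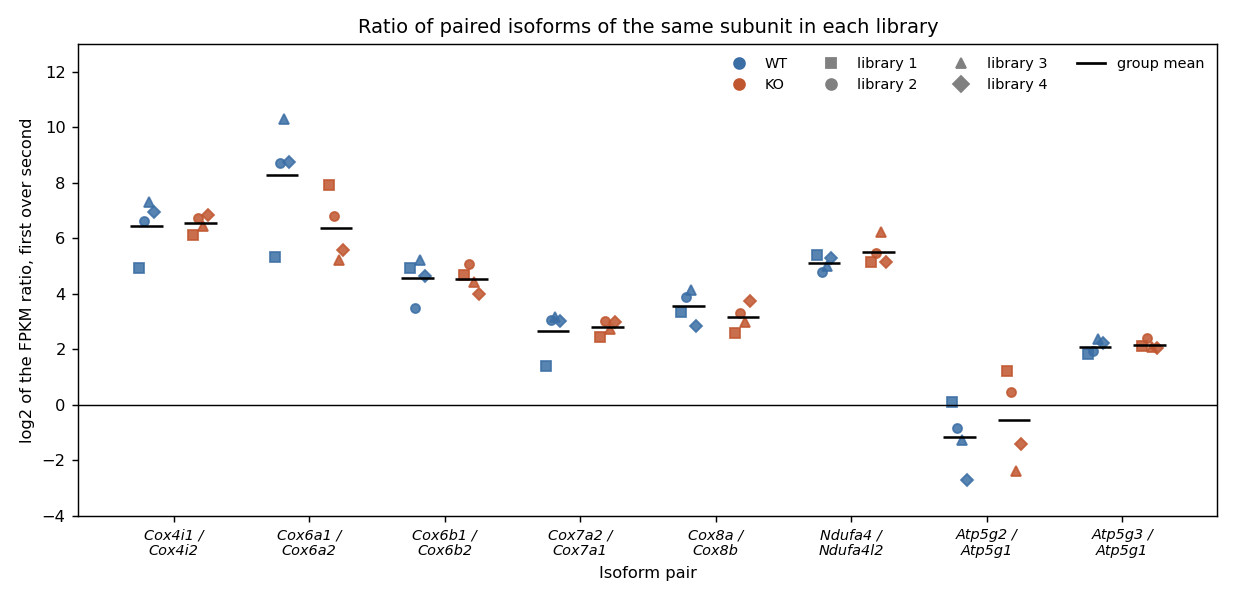
The log2 ratio of FPKM of paired isoforms (vertical axis) in each library, WT in blue and KO in orange, with a marker shape per library number and a black line at the mean of 4 libraries. The Cox6a1 to Cox6a2 ratio spreads most widely in WT (5.34 to 10.3), the Atp5g3 to Atp5g1 ratio stays between 1.83 and 2.41, and WT and KO overlap for every pair.

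The nuclear genes were low together in WT1 and, less so, in KO1. WT1 was the lowest of the 8 libraries for 61 of the 91 genes and KO1 for 15, whereas KO3 was the highest for 42 and WT3 for 22. Among the WT libraries alone, WT1 was lowest for 75 genes (82.4%, against 61.5% of all tested genes), and among the KO libraries KO1 was lowest for 65 (71.4%, against 49.0%). Both held for 58 of 91 (63.7%, against 39.3%). The median difference of WT1 from WT2 to WT4 was -0.86 on the log2 scale for these genes and -0.43 for all genes, and that of KO1 from KO2 to KO4 was -0.47 and -0.19.

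The pattern was seen in all complexes. Both libraries were lowest of their genotype for 4 of 4 complex II genes, 7 of 8 complex III genes, 23 of 36 complex I subunits, 5 of 8 assembly factors, 9 of 18 complex IV genes and 10 of 17 complex V genes. The largest differences in WT1 were those of Ndufa1, an accessory subunit of the membrane arm, at 5.08 FPKM against a mean of 33.9 FPKM in WT2 to WT4, and of Ndufb6, at 7.06 against 41.2 FPKM. Ndufb6 was also low in KO1, at 14.5 against 41.6 FPKM. Cox7a2 was at 23.0 FPKM in WT1 and 47.9 FPKM in KO1, and at 100.5 to 141.9 FPKM in the other 6 libraries.

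Some genes went against this pattern. Atp5j2, the f subunit of complex V, was at 44.4 FPKM in WT1 and 38.3 FPKM in KO1 and at 13.6 to 22.0 FPKM in the others, the only one of the 91 that was highest in both. Cox6b1 differed by -0.01 in WT1 and -0.04 in KO1, and Ndufs8, an iron-sulfur subunit of complex I, by 0.35 and -0.74. These genes, and those with the largest differences, were named after their values were seen.

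**Figure D4:**
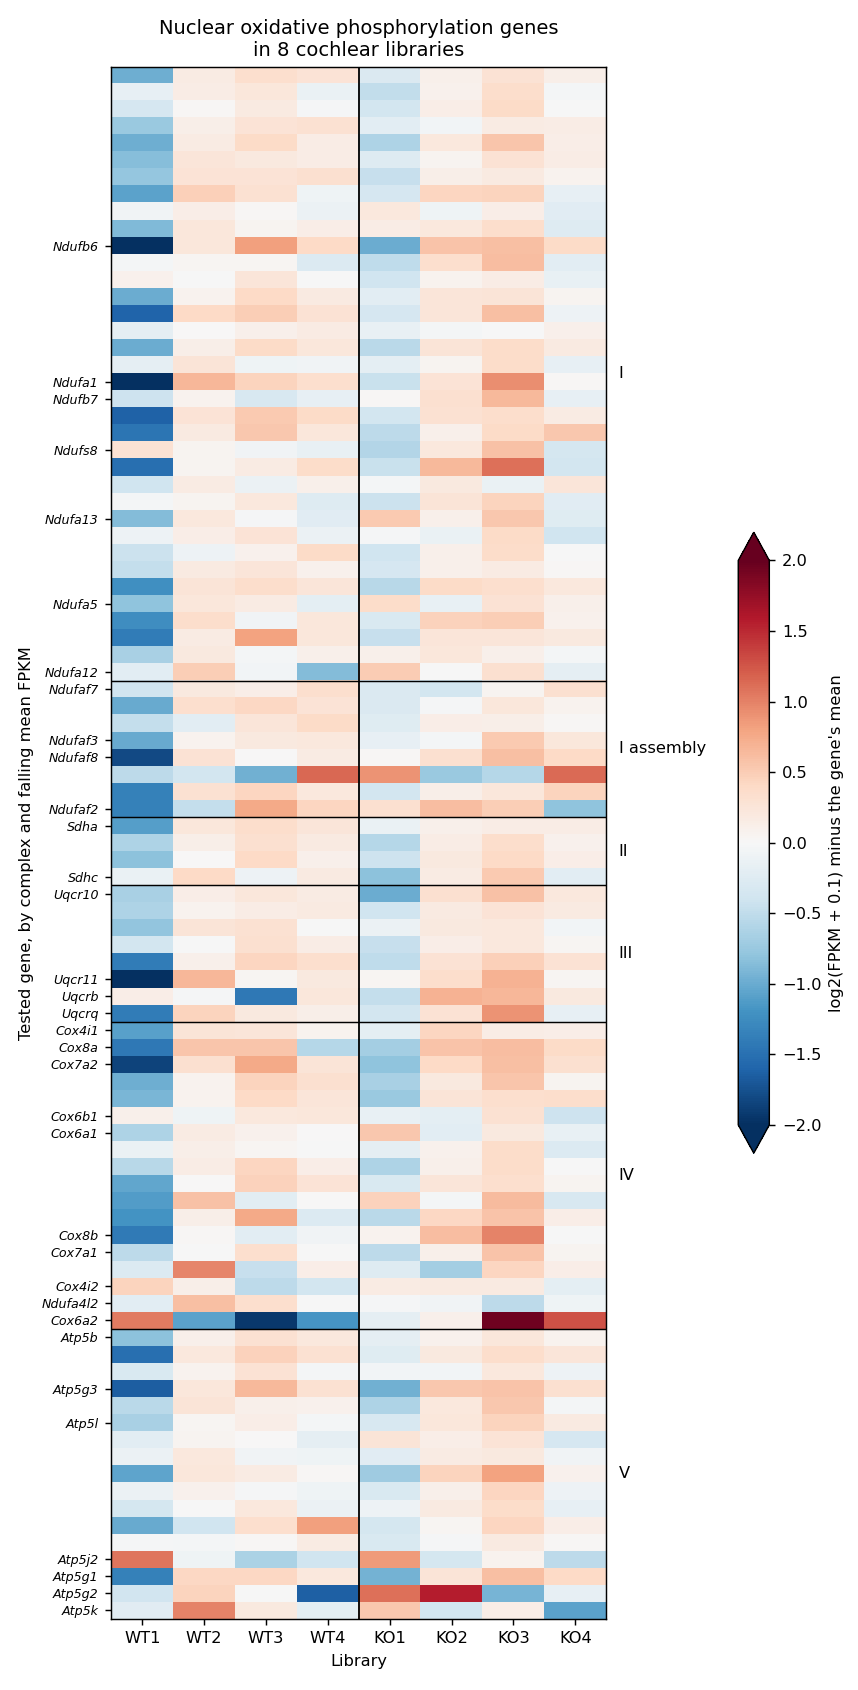
Deviation of log2(FPKM + 0.1) from the mean of each gene (colour, blue low and red high, with values beyond -2 and 2 at the end colours) for the 91 genes (vertical axis, by complex and falling mean, with some of the genes described in the text labelled) in the 8 libraries (horizontal axis, with a line between WT and KO). The WT1 column is blue for most genes, KO1 is paler blue and KO3 is mostly red, while Atp5j2 is red in WT1 and KO1.

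The mitochondrially encoded subunits went the other way in these libraries. The 91 nuclear genes summed to 0.941% of total FPKM in WT1 and 1.24% in KO1, against 1.61 to 1.84% in the other 6 libraries. The 13 mitochondrial messenger RNAs summed to 7.496% and 8.551%, against 2.96 to 5.53%. The ratio of the sums was 7.97 in WT1 and 6.89 in KO1, and 1.83 to 3.21 elsewhere. In 9 of the 13 genes both WT1 and KO1 were highest of their genotype. The median differences over all 13 genes were 1.09 in WT1 and 1.79 in KO1 on the log2 scale. The complex I gene mt-Nd1 was at 2090, 1012, 587.1 and 538.5 FPKM in WT and 2096, 370.4, 481.0 and 409.5 FPKM in KO. WT1 was the lowest WT library for 1 of the 13 genes, mt-Nd6, which lies on the other strand. It was at 58.7 FPKM in WT1 and 380.1 to 654.4 FPKM in the other 7 libraries. Between genotypes none of the 13 was called, and their median log2 fold change was -0.32.

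**Figure D5:**
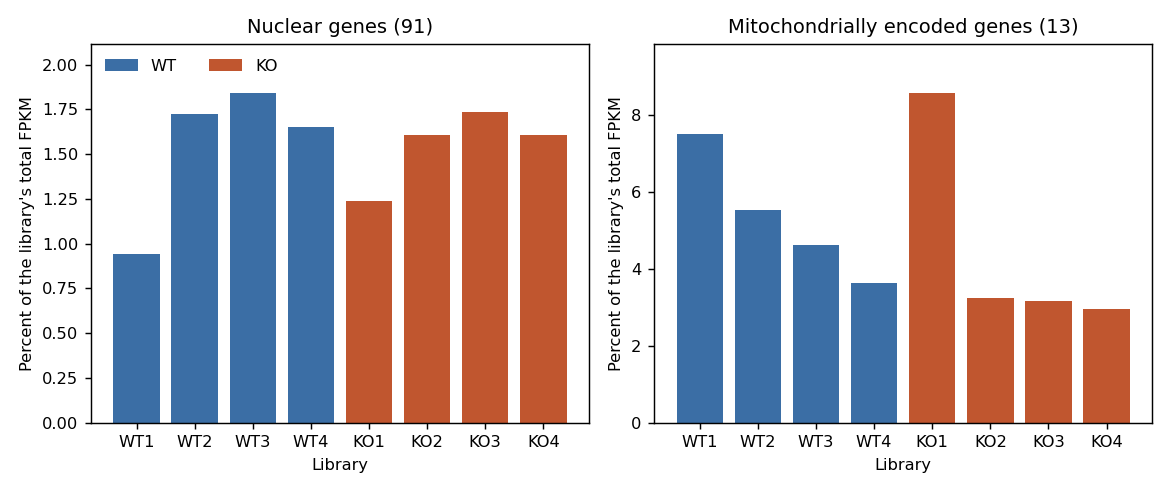
Percent of the total FPKM of each library (vertical axes, from 0) held by the 91 nuclear genes (left) and by the 13 mitochondrially encoded genes (right), one bar per library, WT in blue and KO in orange. WT1 (0.941%) and KO1 (1.24%) are lowest on the left, and KO1 (8.55%) and WT1 (7.496%) highest on the right.

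Other gene groups were measured for comparison. The median differences in WT1 and KO1 were -0.52 and -0.35 for 17 citric acid cycle and pyruvate dehydrogenase genes, -0.27 and -0.25 for 78 mitochondrial ribosomal protein genes, and 0.27 and -0.22 for 95 cytosolic ribosomal protein genes. Both WT1 and KO1 were lowest of their genotype for 15 of the 17 citric acid cycle and pyruvate dehydrogenase genes (88.2%). That share was larger than the 63.7% of the 91 genes. It was 46.2% for the mitochondrial and 17.9% for the cytosolic ribosomal protein genes. The summed level of neuron markers was 444.7 FPKM in WT1 and 933.3 to 1320 FPKM in the other WT libraries, and that of the neutrophil markers was 9926 FPKM in WT1 and 53.3 to 932.4 FPKM in the others. In KO1 the neutrophil sum of 3446 FPKM lay within the range of the other KO libraries. One predicted gene, Gm8797, held 7.09% of the total FPKM of WT1 and at most 0.0918% elsewhere. The part of these in the library pattern was not tested. Across the 91 genes, the WT1 difference had a Pearson correlation of -0.01 with log2 transcript length and of 0.07 with GC content. For the KO1 difference these were 0.04 and 0.18. Over 14942 tested genes they were -0.07 and -0.21 for WT1 and 0.02 and -0.135 for KO1. Each is given as a description of 1 library.

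The spread between replicates was wider with WT1 and KO1 than without them. Both had been singled out as low for most of the 91 genes, and the spread without other libraries was not computed. The median SD on the log2 scale was 0.54 in WT and 0.34 in KO for the 91 genes, against 0.42 and 0.24 for all genes. Without WT1 and KO1 it was 0.17 and 0.20, against 0.20 and 0.19.

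In the other genes of the pathway, 1 of 86 tested genes in 8 lists was called (against 5.12% of all genes), and without WT1 3 were, all lower (against 19.5%). The called gene was Twnk, the helicase of mitochondrial DNA replication, which rose in KO (WT 3.18, 5.25, 4.79 and 4.69 FPKM, KO 5.07, 7.01, 6.80 and 5.73 FPKM, log2 fold change 0.46, p 0.04996 and adjusted p 0.947 in limma). In the same list of 19 regulators of mitochondrial biogenesis, 11 were above 0, and the transcription factor Yy1 had a log2 fold change of 0.21 (p 0.131 in limma). None of 17 citric acid cycle genes was called, with 11 above 0, a median of 0.05, and estimates of 0.16 for Dlst and 0.22 for Sucla2.

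None of the assembly factor lists held a called gene. Among 24 complex IV assembly factors the median was 0.10, Cox20 had -0.60 (p 0.0663 in limma) and the copper chaperone Cox17 had 0.52 (p 0.0906 in limma). Among 9 complex I factors outside the Nduf names the median was 0.10, with 0.36 for Timmdc1 and -0.13 for Tmem126b. The 4 complex II factors had a median of -0.01, with 0.41 for Sdhaf1 and -0.22 for Sdhaf3. The 6 complex III factors had a median of 0.04, with -0.31 for Lyrm7 and 0.64 for Uqcc3. The 5 genes for assembly factors and the inhibitor of complex V had a median of 0.13, with 0.40 for Fmc1 and 0.28 for the inhibitor Atpif1. Cytochrome c, Cycs, had -0.12 and its partner in complex III, Cyc1, had 0.22. Of 78 mitochondrial ribosomal genes 1 was called higher, and 4 were called (3 higher) without WT1. Of 95 cytosolic ribosomal genes 3 were called higher, 15 were called (14 higher) without WT1 and 19 (18 higher) without WT1 and KO1. The shares over all genes in these fits were 5.12%, 19.5% and 16.2%.

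Calls in the marker lists depended on WT1 and on the scaling. The share of all genes called was 5.12% in the 8 libraries and 19.5% without WT1. It was 16.2% without WT1 and KO1 and 5.10% under median-ratio scaling. Of 8 stria vascularis genes 2 were called lower, 7 without WT1, 6 without WT1 and KO1, and 6 under median-ratio scaling. Of 8 erythroid genes 2 were called higher, 8 without WT1, 6 without WT1 and KO1, and 0 under median-ratio scaling. Of 8 neutrophil genes 0 were called, while 8 were called higher without WT1 and 6 without WT1 and KO1, and 0 were called under median-ratio scaling. Of 5 bone genes 2 were called higher, 4 without WT1, and 1 each without WT1 and KO1 and under median-ratio scaling. None of 10 hair cell, 8 neuron or 3 spiral ligament genes was called in the 8 libraries, while 1 neuron and 1 spiral ligament gene were called lower without WT1, and 1 hair cell gene higher and 1 spiral ligament gene lower without WT1 and KO1.

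The sequences bear on whether miR-29a could act on these genes directly. A microRNA pairs with messenger RNA through its seed, bases 2 to 8, and the RefSeq sequence of the mature form (chr6:31062673-31062694, minus strand, GRCm38.p6) is shown with the seed in capitals.
mmu-miR-29a-3p: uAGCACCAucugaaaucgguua
The complement of the seed, TGGTGCT, was found on the transcript strand of the longest 3′-UTR for 3 of 91 genes (3.30%), against 2294 of 14832 tested genes with such a UTR (15.5%). The UTRs were shorter, with a median of 203 bases against 1181 bases. All 4 matches are shown from the transcripts of GENCODE release 21, on GRCm38 and in the 3′-UTR exons, with the match in capitals.
Atp5g1 (chr11:96073045-96073051, minus strand): ctccatgccagtccTGGTGCTg
Atp5g1 (chr11:96072827-96072833, minus strand): ctgggtaatgatgtTGGTGCTt
Ndufb8 (chr19:44549030-44549036, minus strand): agagacactgcatgTGGTGCTc
Sdhc (chr1:171128683-171128689, minus strand): gggtgctttgtttgTGGTGCTa
None of these 3 genes passed the test. Their log2 fold changes were 0.16 ± 0.47 for Atp5g1, 0.23 ± 0.26 for Ndufb8 and -0.17 ± 0.29 for Sdhc (SE).

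Promoters were described because the genes moved together between libraries. Of the 91 genes, 75 had a RefSeq promoter window (250 bases before to 50 after the start, GRCm38.p6), and letters were searched on both strands. The core of the binding motif of NRF1, GCATGCGC, a known activator of respiratory chain genes, occurred in 12 of 75 (16.0%), against 5.4% of 11761 tested genes with a window. The YY1 motif AAGATGGCG occurred in 8 (10.7%, against 3.09%), the ERR motif TCAAGGTCA in 2 (2.67%, against 0.332%), the ETS motif CCGGAAGT in 5 (6.67%, against 7.96%) and the SP1 motif GGGCGG in 34 (45.3%, against 65.8%). The NRF1 core is shown in capitals, with its neighbouring bases, for the most abundant holder of each complex.
Ndufa8 (chr2:36049328-36049357, minus strand): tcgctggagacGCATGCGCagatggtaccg
Sdhb (chr4:140961206-140961235, plus strand): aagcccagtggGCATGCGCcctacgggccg
Uqcrc1 (chr9:108936668-108936697, plus strand): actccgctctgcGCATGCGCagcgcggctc
Cox6a1 (chr5:115349100-115349129, minus strand): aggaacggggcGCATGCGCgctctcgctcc
Atp5l (chr9:44920963-44920992, minus strand): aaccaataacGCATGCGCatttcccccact
Genes with and without the NRF1 core had median log2 fold changes of 0.16 and 0.13 between genotypes. Their median differences in WT1 were -0.72 for the 12 genes with it and -0.99 for the 63 without it.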

How the data were processed

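RNA-seq of whole cochlea was analysed in 8 libraries, with genotype and number taken from the labels. Per the labels, the authors removed ribosomal RNA, treated the RNA with RNase R and made strand-specific libraries. RNase R digests linear RNA, and whether it lowered messenger RNA unequally between genes or libraries cannot be told from FPKM. Reads were mapped with Hisat2, and the authors deposited values in FPKM, a level that depends on the transcript length assumed. The tool and annotation behind the FPKM are not given in the sources used here. The labels name mm9, while 19853 of 21895 gene coordinates equal those of GENCODE release 21 on GRCm38, which was used for sequences. The authors tested counts with DESeq2. Here the log2 of FPKM plus 0.1 was fitted with limma 3.58.1 in R 4.3.3 (genotype as the only factor, moderated variances with a trend) for genes with a mean of at least 0.5 FPKM, without scaling, and p-values were adjusted by Benjamini-Hochberg over all tested genes. Figures were made with matplotlib 3.10.9. The fit was run on simulated data in which genes varied independently. Such data hold no deviation shared by the genes of a library, so this run does not bear on the pattern in WT1 and KO1. FPKM carry no counts, so counting error is unknown and the 4 libraries per group set the precision.

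The genes and lists were chosen with earlier results of these data known. Values are given for every called gene, the 3 smallest p per complex, isoform pairs, the highest and lowest mean per complex, and the 2 smallest p of each pathway list. A gene that this rule names is not reported here. Alternatives were another pseudocount, 2 other filters, 2 scalings, no variance trend, 6 libraries, a block for the replicate number, and 9 fits that left out libraries. Whether the replicate numbers mark pairs or batches is not known, and the libraries were not taken as pairs. All 8 columns of libraries were used.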

Additional observations from a re-analysis of the deposited data

Results flagged for a closer look

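In each group of 4 libraries the gap of the highest or lowest library to its neighbour was divided by the range of the group and compared with the 95% critical value of Dixon's test. Chance exceeds it in about 1 in 20 groups. Of 70 groups of named genes 6 exceeded it, and of 182 groups over the 91 genes 14 did. WT1 was low for Ndufaf3 at 3.55 FPKM (others 7.62 to 8.41), for Sdha at 37.6 FPKM (others 94.8 to 102.5) and for Uqcr10 at 52.1 FPKM (others 90.1 to 95.7). WT1 was high for Cox6a2 at 1.17 FPKM (others 0.0618 to 0.194). KO3 was low for Ndufa4l2 at 0.979 FPKM (others 1.36 to 1.42), and KO4 was low for Cox4i2 at 1.46 FPKM (others 1.90 to 1.91).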

How the results depend on the processing

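The number of the 91 genes called was 1 with a pseudocount of 1, a mean of at least 1 FPKM, median-ratio scaling or the 6 libraries numbered 1 to 3. It was 0 without the filter (of 94) and 0 without the variance trend, where Cox8b had p 0.0687 and 0.0522 in limma, and 2 with quantile normalization, which called Cox6b1 lower (log2 fold change -0.36). Leaving out 1 library gave 0 to 2 of the 91, 347 to 2922 of all genes (767 with all libraries) and a median over the 91 genes of -0.11 to 0.26. The count over all genes was 2922 without WT1, 377 without KO2 and 347 without KO3. Without WT1 and KO1 it was 2431, with 2 of the 91 genes. Without the filter 1129 genes were called. The split of calls over all genes was 691 higher and 76 lower, and became 402 and 363 under median-ratio scaling and 378 and 547 under quantile normalization. Genes called in the pathway lists numbered 1, and 2 without the filter, 2 under median-ratio scaling, 3 under quantile normalization, 0 to 3 when 1 library was left out, and 4 without WT1 and KO1.

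Deviations of libraries with the same number correlated at 0.42, -0.24, -0.17 and 0.21, and the numbers were not taken as pairs. The value of 0.42 was that of WT1 with KO1, and a batch shared by these libraries was not tested. With the replicate number as a block, 838 of all genes, 1 of the 91 (Cox8b) and 3 of the pathway genes were called, and the median of the 91 was 0.13. The cause of these differences was not tested. Over 594 comparisons of the named genes, 6 gained and 6 lost a call. The sign of the estimate changed in 42, each time with neither value called, of which 15 were without WT1. Cox8b and Cox6a2 kept their sign in all settings run.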

Other observations

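Among the regulators of mitochondrial biogenesis, Esrra, a nuclear receptor that is known to drive respiratory chain genes, was the most abundant. It was at 4.98, 20.2, 28.7 and 22.6 FPKM in WT1 to WT4 and at 16.2, 23.0, 30.4 and 26.2 FPKM in KO1 to KO4. WT1 and KO1 were the lowest libraries of their genotype, as for 58 of the 91 nuclear genes (63.7%) and 39.3% of all tested genes. The 19 regulators were mixed, with WT1 the lowest of the 8 libraries for 11 and KO1 for 1. Nrf1 was at 13.9 FPKM in WT1, above the 9.67 to 12.7 FPKM of WT2 to WT4. The part of Esrra in the library pattern was not tested. Esrra was named after its values were seen. The complex V inhibitor Atpif1 was at 70.0, 34.9, 22.7 and 29.1 FPKM in WT and at 90.0, 42.1, 42.4 and 21.9 FPKM in KO, and so was highest in WT1 and KO1.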
